A study of Homo sapiens with 18 samples.

Results

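DNA replication and G1/S genes are the genes whose products take a cell out of G1 and copy its chromosomes in S phase. A list of 57 such genes was followed across 18 Affymetrix Human Gene 2.0 ST arrays, and a gene entered when the platform annotation gave its symbol to a feature, the array's unit for 1 transcript cluster. Of the 57 genes, 34 had a named feature and 23 did not. For CLSPN and GINS4, which had more than 1 feature, the feature with the highest mean over the 18 arrays was used. All 34 passed the filter on dim features, as did 29855 of the 53617 features of the array, so the counts below cover every listed gene with a named feature. The genes not analysed here were ORC1, ORC6 and GMNN of origin licensing, the polymerase and primase genes POLA1, POLA2, POLD1, POLD3, POLE, POLE2, PRIM1 and PRIM2, the clamp loader genes RFC2, RFC3, RFC4 and RFC5, LIG1, the single-strand binding genes RPA1, RPA2 and RPA3, TK1, CHAF1A, CHAF1B and ATAD2.

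A replication origin is licensed in G1, when CDC6 and CDT1 help the origin recognition complex load the ring of MCM2 to MCM7 onto DNA. At the entry to S phase, CDC45 and the GINS complex join the ring and make it an active helicase, and PCNA then clamps the polymerases to the template while fork protection proteins hold the machinery together. Many of these genes are transcribed by E2F factors, which the retinoblastoma protein restrains until cyclin-dependent kinases, that of cyclin E among them, release them. Their RNA is commonly read as a mark of cells in late G1 and S phase.

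The tested arrays came from MDA-MB-231 and MDA-MB-468, both triple-negative breast cancer lines, given an antisense oligonucleotide (ASO) that targets AL078604.2, a long non-coding RNA (the ASO is named ASO1 in the design text), and from SKBR3, a HER2-positive breast cancer line, given an ASO against LINC01269. Each was set against arrays of the same line given a control ASO, with 3 arrays in each of the 6 groups. Every culture, controls included, received a GapmeR, a modified ASO that directs cleavage of its target, at 15 nM for 48 h with the transfection reagent TransIT-BrCa. Each long non-coding RNA was targeted with 1 ASO in these arrays, and neither target has a named feature, so its knockdown was not analysed here.

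Values are on the deposited log2 scale. Array medians were 4.56 to 4.63 in SKBR3, 5.41 to 5.43 in MDA-MB-231 and 5.21 to 5.24 in MDA-MB-468, so levels were compared only within a line. Replicate arrays correlated at r from 0.985 to 0.992 across features. The 34 genes were well expressed, with group means between the 78.3 and 99.1 percentile of all features. Line markers ran partly against the labels. In control arrays of SKBR3, MDA-MB-231 and MDA-MB-468 in this order, the epithelial gene EPCAM stood at percentiles 98.9, 99.2 and 99.3, the mesenchymal gene VIM at 76.1, 76.6 and 82.1, and EGFR, whose gene has extra copies in MDA-MB-468, at 99.0, 98.2 and 98.7. In background knowledge MDA-MB-231 is mesenchymal, with little EPCAM and much VIM, which these values do not show. GRB7, a neighbour of the HER2 gene amplified with it in SKBR3, stood at 79.1, 81.3 and 78.8, no higher in SKBR3. AXL, known from mesenchymal lines, stood at 80.7, 83.2 and 60.1, the luminal keratin gene KRT18 at 98.7, 98.5 and 97, and the oestrogen receptor gene ESR1 at 59.8, 55.5 and 52.4. With the labels, RB1, lost in MDA-MB-468, stood at 47.7, 60.3 and 24.9 and the basal keratin gene KRT5 at 69.6, 73.4 and 85.8. Each line name below therefore means arrays labelled with that line.

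The anti-AL078604.2 ASO was accompanied by small shifts of the replication genes in opposite directions in the 2 triple-negative lines, none of which passed the test for a single gene, while 2 genes fell in the average of both lines. In MDA-MB-231, 27 of 34 genes lay above their control mean and 7 below, with a median log2 difference of 0.10. The same count, with a median of 0.07, was seen in SKBR3 with the anti-LINC01269 ASO. In MDA-MB-468, 10 lay above and 24 below, with a median of -0.06. That median rested partly on single arrays, since it was -0.036 with 19 genes below 0 when ASO replicate 3 was left out, -0.039 when control replicate 2 was, and -0.096 when ASO replicate 2 was. With array weights it was -0.0063 with 16 genes above 0. The array means over the list overlapped between the ASO and control arrays of MDA-MB-468. Over all 29855 tested features, 53.0% lay above 0 in MDA-MB-231 (median 0.01) and 49.1% in MDA-MB-468 (median -0.0035). The list was chosen with earlier results of these data known, so these counts and medians are descriptions. The 2 genes that passed the test in the average of both lines, CDCA7L and DTL, were lower with the ASO. In RNA of a whole culture, fewer cells in S phase and less RNA per cell cannot be told apart.

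No single gene of the list passed the limma test within a line, at a Benjamini-Hochberg adjusted p of 0.05 over all features. The background of calls was low, at 0.171% of features (51) in MDA-MB-231 and 0.0067% (2) in MDA-MB-468. At an unadjusted p below 0.05, the list held 6 higher and 3 lower genes in MDA-MB-231, where 9.35% of all features were below that p in either direction. In MDA-MB-468 it held 1 higher and 7 lower genes, where the share of all features was 10.5%. Groups did not overlap for 8 higher and 2 lower genes in MDA-MB-231, where 9.28% of all features were higher without overlap and 7.87% lower. They did not overlap for 3 higher and 10 lower genes in MDA-MB-468, where the shares were 8.41% and 8.5%.

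By gene, 18 of the 34 (52.9%) lay above 0 in MDA-MB-231 and below 0 in MDA-MB-468, against 22.4% of all tested features. The reverse pattern was seen in 1 gene, DNA2. Another 9 lay above 0 in both lines and 6 below 0 in both. The effect in MDA-MB-231 exceeded that in MDA-MB-468 for 25 genes, with a median of 0.13 log2 for the difference of the 2 effects, against 52.5% of all features and a median of 0.01. The test of that difference called 0 of 29855 features (0%), and the smallest adjusted p in the list was 0.998. At an unadjusted p below 0.05 it held 5 genes of the list, all higher in MDA-MB-231, against 4.16% of all features in either direction. The count of 18 became 12 without MDA-MB-468 anti-AL078604.2 replicate 3, and 14 to 20 when any other 1 of the 12 arrays was left out. Because earlier results of these data were known when the list was chosen, the count beside its background is not a test.

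**Figure D1:**
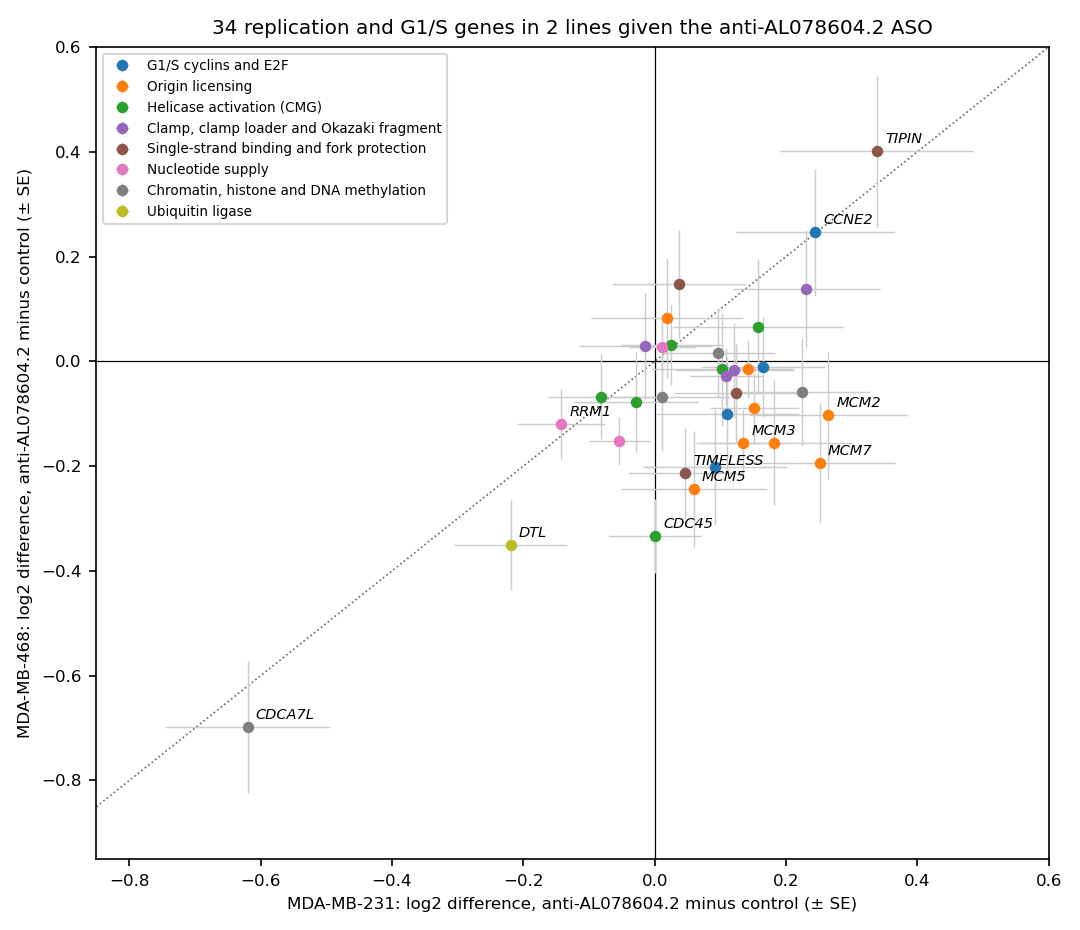
Each point is 1 of the 34 genes. The horizontal axis gives the log2 difference between anti-AL078604.2 and control arrays in MDA-MB-231 and the vertical axis the same in MDA-MB-468, with bars of 1 SE from the fit over all arrays, colours for the role and a dotted line where both are equal. The 18 genes of the lower right quadrant include MCM2 to MCM7, and CDCA7L and DTL lie at the lower left.

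Across the 34 genes the 2 sets of differences correlated at r = 0.687, but without CDCA7L and DTL this was 0.368, against 0.326 over all tested features and 0.461 over the 11148 tested named genes. The genes share their arrays and are not independent, so these are descriptions.

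The cyclin E and E2F genes drive the step into S phase. All 4 lay above 0 in MDA-MB-231 (0.09 to 0.24 log2), and 1 of 4 lay above 0 in MDA-MB-468 (-0.20 to 0.25). The exception was CCNE2, which encodes a cyclin E that activates CDK2. CCNE2 read 9.65, 10.02 and 10.21 with anti-AL078604.2 in MDA-MB-231, against 9.84, 9.70 and 9.60 with control. It read 9.68, 9.81 and 9.62 with the ASO in MDA-MB-468, against 9.53, 9.53 and 9.32. The groups overlapped in MDA-MB-231 and did not in MDA-MB-468, with log2 differences of 0.24 ± 0.121 (SE, adjusted p = 0.571) and 0.25 ± 0.121 (adjusted p = 0.498). CCNE1, the other cyclin E gene, had differences of 0.16 in MDA-MB-231 and -0.01 in MDA-MB-468. E2F1, an activating E2F, had 0.09 and -0.20, and E2F2, a second activator, 0.11 and -0.10.

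Origin licensing genes showed the opposite directions most often, in 7 of 8 genes. All 6 subunits of the MCM2 to MCM7 ring lay above 0 in MDA-MB-231 (median 0.15 log2) and below 0 in MDA-MB-468 (median -0.13), and the median difference of the effects was 0.30. Without MDA-MB-468 anti-AL078604.2 replicate 3 the MDA-MB-468 median was -0.04, and 4 of 6 had opposite signs. Without MDA-MB-231 anti-AL078604.2 replicate 1, 5 of 6 had opposite signs. These 6 subunits were singled out with their values known, so this is a description. None passed the test in either line or for the difference, with smallest adjusted p of 0.377, 0.404 and 0.998 in that order. CDT1, the loading factor, followed the ring (0.18 and -0.16), while CDC6, the ATPase that loads it, lay above 0 in both lines (0.02 and 0.08).

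MCM3, which sits beside MCM5 in the ring, was the 1 gene of the list whose groups did not overlap in either line and lay in opposite directions, a pattern held by 0.261% of all features (78). It read 10.95, 10.87 and 10.81 with anti-AL078604.2 in MDA-MB-231, against 10.67, 10.81 and 10.76 with control. In MDA-MB-468 it read 10.59, 10.50 and 10.33 with the ASO, against 10.59, 10.66 and 10.63. The margins were small in both lines, since the lowest ASO array in MDA-MB-231 and the highest ASO array in MDA-MB-468 lay within 0.01 log2 of the nearest control array. The log2 differences were 0.13 ± 0.0642 (SE, adjusted p = 0.541) in MDA-MB-231 and -0.16 ± 0.0642 (adjusted p = 0.404) in MDA-MB-468. The difference of the effects was 0.29 ± 0.0908 (adjusted p = 0.998).

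MCM7, which forms the helicase core with MCM4 and MCM6, had the widest difference of effects in the list (0.45 ± 0.162, SE, adjusted p = 0.998). It read 10.45, 10.31 and 10.25 with anti-AL078604.2 in MDA-MB-231, all above the control arrays at 10.00, 10.09 and 10.17. It read 9.85, 9.79 and 9.40 with the ASO in MDA-MB-468, against 9.85, 9.89 and 9.89. The MDA-MB-468 groups overlapped, and replicate 3 alone lay far below its controls. The log2 differences were 0.25 ± 0.115 in MDA-MB-231 (adjusted p = 0.51) and -0.19 ± 0.115 in MDA-MB-468 (adjusted p = 0.59).

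Replicate 3 was the lowest ASO array in MDA-MB-468 for all 6 subunits. MCM2, which carries a histone-binding tail, read 8.04, 7.69 and 7.66 with the ASO in MDA-MB-231, against 7.50, 7.42 and 7.69. In MDA-MB-468 MCM2 read 7.45, 7.35 and 6.98, against 7.40, 7.44 and 7.25, so its groups overlapped in both lines. MCM4 read 10.06, 9.99 and 10.16 in MDA-MB-231, against 9.95, 9.88 and 9.93, and in MDA-MB-468 10.09, 9.99 and 9.85, against 10.07, 10.11 and 10.02. MCM4 was thus higher without overlap in MDA-MB-231 (0.15 ± 0.0677 log2, SE, adjusted p = 0.493), and its groups overlapped in MDA-MB-468 (-0.09). MCM6 read 9.72, 9.72 and 9.81 in MDA-MB-231, against 9.62, 9.56 and 9.65, again without overlap (0.14 ± 0.0548, adjusted p = 0.377), and differed by -0.01 in MDA-MB-468. MCM5 had 0.06 in MDA-MB-231 and -0.24 in MDA-MB-468, where its groups did not overlap and replicate 2 (7.87) was nearly as low as replicate 3 (7.79).

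The promoters of MCM3 and MCM7 are shown because of their p for the difference of the effects. With CDC45, they had the smallest p among listed genes with a promoter sequence. Both hold the E2F letters typical of this list. The windows are the 300 bases from 250 before to 50 after the outermost annotated start, from RefSeq (GRCh38.p14), at chr6:52284693-52284992 and chr7:100101348-100101647, both on the minus strand and printed 5′ to 3′ along the gene. Capitals mark the E2F core words TTCCCGC or TTGGCGC or TTGCCGC or TTCGCGC on either strand. MCM3 holds 3 words, which begin at positions -173, -23 and -3 from the start, and MCM7 holds 3, at -187, -8 and -5, of which the last 2 overlap.
MCM3: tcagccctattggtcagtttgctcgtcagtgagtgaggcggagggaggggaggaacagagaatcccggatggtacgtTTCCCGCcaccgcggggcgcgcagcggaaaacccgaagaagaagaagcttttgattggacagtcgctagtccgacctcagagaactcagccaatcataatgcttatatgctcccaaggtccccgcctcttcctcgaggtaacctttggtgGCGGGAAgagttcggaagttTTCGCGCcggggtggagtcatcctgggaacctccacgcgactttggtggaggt
MCM7: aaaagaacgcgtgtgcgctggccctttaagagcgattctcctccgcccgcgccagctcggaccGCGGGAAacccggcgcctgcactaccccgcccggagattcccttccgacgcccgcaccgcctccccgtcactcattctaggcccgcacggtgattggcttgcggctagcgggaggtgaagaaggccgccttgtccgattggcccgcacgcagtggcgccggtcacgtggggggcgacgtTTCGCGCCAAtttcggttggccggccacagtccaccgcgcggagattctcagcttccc
A match of letters is a description of the sequence, not evidence that a factor binds there.

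Of the 34 genes, 28 had a promoter window in the RefSeq table, and 22 of these (78.6%) held at least 1 of the 4 E2F words. The words were present in 13% of all 35116 windows and in 19.1% of the outermost windows of the 8538 genes with a tested named feature and a window. All 6 licensing genes with a window held a word. CCAAT, the letters of another common promoter element, stood in 57.1% of the 28 windows, in 34.6% of all windows and in 36.4% of those of tested genes. Genes with an E2F word had a median difference of 0.07 log2 in MDA-MB-231 and -0.08 in MDA-MB-468 (22 genes), and those without had 0.11 and -0.01 (6 genes), which are given without a test.

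The helicase activation genes complete the MCM ring, and CDC45, the subunit that joins it together with GINS, had its smallest p in MDA-MB-468, where it lay lower. CDC45 read 7.42, 7.35 and 7.26 with anti-AL078604.2 in MDA-MB-468, against 7.69, 7.74 and 7.60 with control. In MDA-MB-231 it read 8.18, 8.05 and 8.06 with the ASO, against 8.12, 8.14 and 8.04. All 3 ASO arrays of MDA-MB-468 lay below all 3 controls, while the MDA-MB-231 groups overlapped. The log2 difference in MDA-MB-468 was -0.33 ± 0.0702 (SE, adjusted p = 0.15), which did not pass, and that in MDA-MB-231 was 0.0006 ± 0.0702 (adjusted p = 0.9996). The difference of the effects, 0.33 ± 0.0993, had the smallest unadjusted p in the list (0.00383) and an adjusted p of 0.998.

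CDC45 also differs from most of the list in its promoter window, which holds none of the 4 E2F words and no CCAAT. The window is shown because CDC45 had the smallest p for the difference of the effects. It lies at chr22:19479216-19479515 on the plus strand (GRCh38.p14).
CDC45: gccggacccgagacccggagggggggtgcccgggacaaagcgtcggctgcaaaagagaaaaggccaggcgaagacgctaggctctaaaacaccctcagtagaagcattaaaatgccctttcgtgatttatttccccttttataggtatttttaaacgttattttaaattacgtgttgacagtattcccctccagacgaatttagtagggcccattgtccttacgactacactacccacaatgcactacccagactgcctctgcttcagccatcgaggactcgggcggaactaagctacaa
The table holds 3 windows for CDC45, and this is the outermost one, so the absence of these letters says nothing about the other starts.

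Among the other helicase activation genes, the 4 GINS genes had differences between -0.08 and 0.16 log2 in MDA-MB-231 and between -0.07 and 0.07 in MDA-MB-468, and MCM10, which helps activate the helicase, had -0.03 and -0.08. None of these 5 was without overlap in either line.

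Among clamp and Okazaki fragment genes, PCNA, the sliding clamp, was higher without overlap in MDA-MB-231. It read 11.86, 11.87 and 11.96 with anti-AL078604.2, against 11.72, 11.80 and 11.83 with control, a log2 difference of 0.11 ± 0.0551 (SE, adjusted p = 0.578). In MDA-MB-468 it read 11.73, 11.70 and 11.58, against 11.64, 11.75 and 11.71, and the groups overlapped (-0.03). FEN1, the flap nuclease that trims Okazaki fragments, had 0.12 and -0.02, and DNA2, a nuclease and helicase, -0.01 and 0.03. DSCC1, part of an alternative clamp loader, lay above 0 in both lines (0.23 and 0.14), without overlap in MDA-MB-468.

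All 4 tested genes grouped under single-strand binding and fork protection lay above 0 in MDA-MB-231 and 2 of 4 in MDA-MB-468. TIPIN, which binds TIMELESS at the moving fork, lay above 0 in both lines. It read 8.13, 8.54 and 8.84 with anti-AL078604.2 in MDA-MB-231, against 8.20, 8.32 and 7.97 with control. In MDA-MB-468 it read 8.27, 8.38 and 8.34, against 8.02, 7.86 and 7.90. The groups did not overlap in MDA-MB-468, while in MDA-MB-231 replicate 1 lay among the controls. The average of the 2 effects was 0.37 ± 0.104 log2 (SE, adjusted p = 0.0843), which did not pass. It passed in 1 of 12 omissions of 1 array, that of MDA-MB-231 anti-AL078604.2 replicate 1 (0.46, adjusted p = 0.00685), and was weakest without replicate 3 of the same group (0.29, adjusted p = 0.223).

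TIMELESS read 8.89, 8.79 and 8.68 with the ASO in MDA-MB-231, against 8.59, 8.76 and 8.88, and 8.45, 8.43 and 8.25 in MDA-MB-468, against 8.48, 8.62 and 8.67. It overlapped in MDA-MB-231 (0.05) and was lower without overlap in MDA-MB-468 (-0.21 ± 0.0871, SE, adjusted p = 0.403). The 2 partners thus lay on opposite sides of 0 in MDA-MB-468, where neither passed. CLSPN, the adaptor that passes the fork's checkpoint signal to CHEK1, read 9.33, 9.47 and 9.54 with the ASO in MDA-MB-468, against 9.50, 9.28 and 9.12 (0.15 ± 0.102, SE, adjusted p = 0.665), and had 0.04 in MDA-MB-231. EXO1, an exonuclease of repair and replication forks, had 0.12 in MDA-MB-231, without overlap, and -0.06 in MDA-MB-468.

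The nucleotide supply genes did not show the opposite directions. RRM1, the large subunit of ribonucleotide reductase, read 10.16, 10.05 and 10.00 with anti-AL078604.2 in MDA-MB-231, against 10.26, 10.23 and 10.15 with control, where 1 array of each group overlapped. It read 9.91, 10.05 and 10.07 in MDA-MB-468, against 10.18, 10.14 and 10.07, a separation of less than 0.01 log2. The differences were -0.14 ± 0.0668 (SE, adjusted p = 0.531) and -0.12 ± 0.0668 (adjusted p = 0.557). TYMS, which makes thymidylate, had -0.05 in MDA-MB-231 and -0.15 ± 0.0459 in MDA-MB-468 (adjusted p = 0.28), where its groups did not overlap. RRM2, the small reductase subunit, had 0.01 and 0.03.

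CDCA7L, a MYC-interacting relative of CDCA7, fell with the anti-AL078604.2 ASO in the average of both lines. It read 8.72, 8.47 and 8.30 with the ASO in MDA-MB-231, against 9.19, 9.06 and 9.09 with control. In MDA-MB-468 it read 8.44, 8.54 and 9.06, against 9.40, 9.31 and 9.43. All 6 ASO arrays lay below all controls of their line, with MDA-MB-468 replicate 3 the closest. The average log2 difference was -0.66 ± 0.0891 (SE, adjusted p = 0.00396), or 0.633-fold, and CDCA7L remained below the threshold in all 22 alternatives tried (adjusted p up to 0.0225). The single-line differences were -0.62 ± 0.126 in MDA-MB-231 (adjusted p = 0.0612) and -0.70 ± 0.126 in MDA-MB-468 (adjusted p = 0.12), and their difference was 0.08 ± 0.178 (adjusted p = 0.998).

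DTL, the substrate receptor of a cullin ubiquitin ligase that destroys CDT1 in S phase, also fell in the average of both lines. It read 10.39, 10.33 and 10.29 with the ASO in MDA-MB-231, against 10.61, 10.55 and 10.51 with control. In MDA-MB-468 it read 9.43, 9.70 and 9.71, against 10.06, 9.96 and 9.87. Again all 6 ASO arrays lay below the controls of their line. The average log2 difference was -0.29 ± 0.061 (SE, adjusted p = 0.0282), or 0.821-fold, with -0.22 in MDA-MB-231 (adjusted p = 0.395) and -0.35 in MDA-MB-468 (adjusted p = 0.197). DTL lost its call in 8 of 12 omissions of 1 array (adjusted p up to 0.0834) and without the intensity trend in the fit (adjusted p = 0.0541).

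In that average, 478 of all features (1.6%) were called, 268 of them lower (0.898%), and the list held 2 lower genes and 0 higher. CDCA7L and DTL were also the only genes of the list lower without overlap in both lines, a pattern held by 1.35% of all features (403). Their promoters are shown because both genes were called in that average. Both are among the 22 windows with an E2F word, CDCA7L with 1 at -196 and DTL with 2 at -108 and -7. The windows are chr7:21945850-21946149 on the minus strand and chr1:212035498-212035797 on the plus strand (GRCh38.p14), with the words in capitals as above.
CDCA7L: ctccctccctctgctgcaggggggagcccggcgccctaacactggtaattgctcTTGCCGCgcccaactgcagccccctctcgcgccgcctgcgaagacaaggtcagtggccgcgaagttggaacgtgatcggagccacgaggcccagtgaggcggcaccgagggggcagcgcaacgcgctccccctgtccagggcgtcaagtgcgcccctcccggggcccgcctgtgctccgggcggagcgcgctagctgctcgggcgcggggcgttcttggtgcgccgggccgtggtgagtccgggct
DTL: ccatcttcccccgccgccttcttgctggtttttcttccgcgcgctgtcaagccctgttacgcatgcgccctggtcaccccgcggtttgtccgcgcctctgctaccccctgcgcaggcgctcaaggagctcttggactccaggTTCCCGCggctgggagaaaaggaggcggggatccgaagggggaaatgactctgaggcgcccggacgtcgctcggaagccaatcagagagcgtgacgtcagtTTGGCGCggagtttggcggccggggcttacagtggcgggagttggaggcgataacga
CDCA7, the relative of CDCA7L that is itself a partner of the HELLS chromatin remodeller, had 0.01 in MDA-MB-231 and -0.07 in MDA-MB-468. UHRF1, which reads newly copied DNA for maintenance methylation, had 0.22 and -0.06, without overlap in MDA-MB-231. SLBP, which binds histone messages in S phase, had 0.10 and 0.02.

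**Figure D2:**
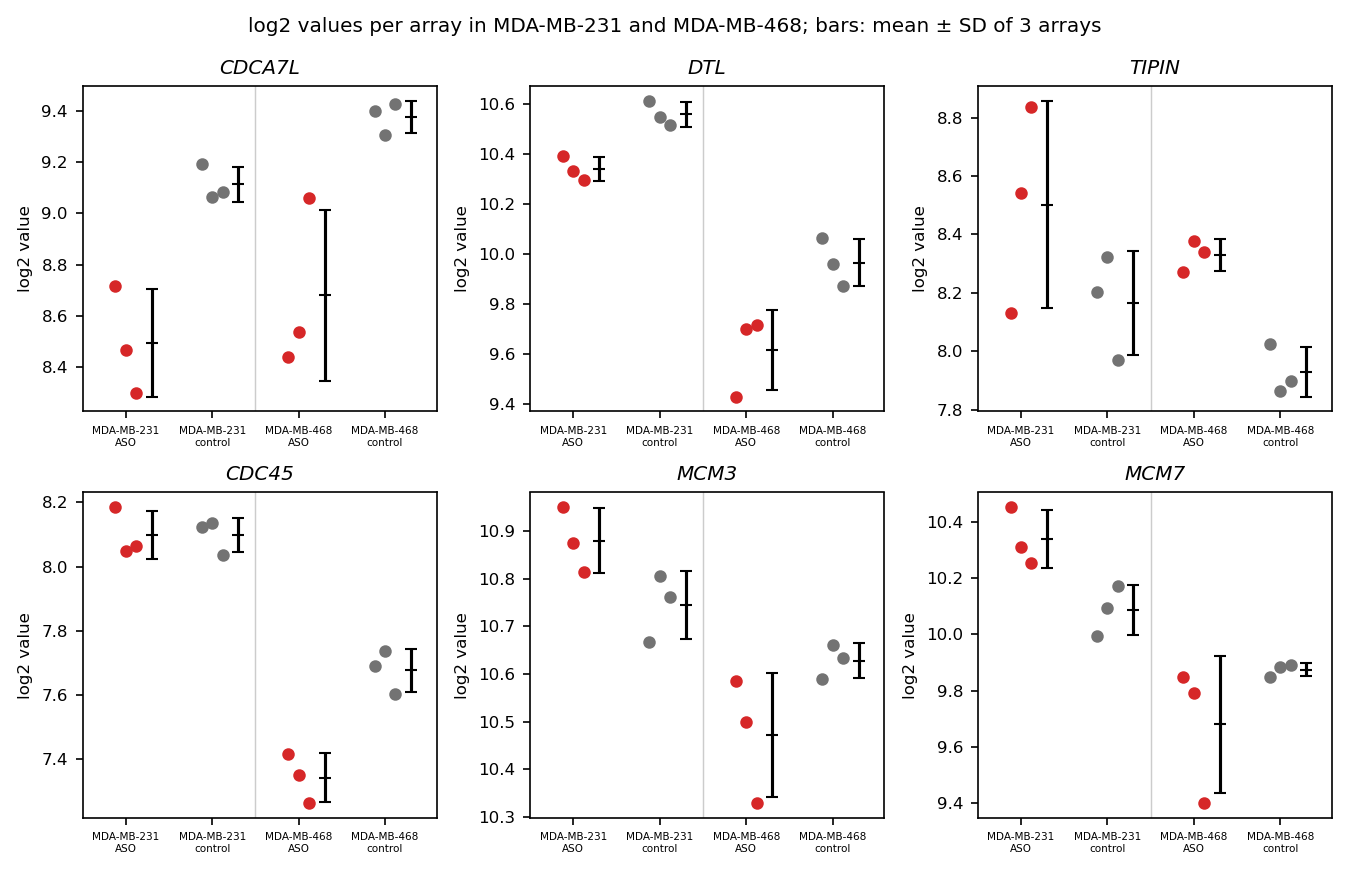
log2 values of 6 genes in each array (points) of MDA-MB-231 and MDA-MB-468, with anti-AL078604.2 arrays in red and control arrays in grey, and the mean ± SD of 3 arrays as bars. CDCA7L and DTL are below their controls in both lines, CDC45 in MDA-MB-468, and MCM3 and MCM7 lie above their controls in MDA-MB-231, each panel having its own scale.

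By array, the mean over the 34 genes, taken as log2 value minus the control mean of the line, was 0.06, 0.05 and 0.10 with anti-AL078604.2 in MDA-MB-231, against -0.0013, -0.0064 and 0.0078 with control. All 3 ASO arrays lay above all controls. The mean over all tested features also separated these groups, at smaller size. It was 0.014, 0.0073 and 0.0039 with the ASO, against -0.0022, 0.0005 and 0.0017 with control. In MDA-MB-468 the mean over the 34 genes was -0.06, -0.02 and -0.12 with the ASO, against 0.03, 0.02 and -0.05 with control. Here ASO replicate 2 lay above control replicate 3, so the groups overlapped. Without CDCA7L and DTL, the MDA-MB-468 means were -0.02, 0.0094 and -0.11 with the ASO, against 0.03, 0.02 and -0.05. Those of MDA-MB-231 were then 0.08, 0.08 and 0.14, against -0.0056, -0.0049 and 0.01. Of the 34 genes, 21, 23 and 25 lay above the control mean in the ASO arrays of MDA-MB-231 and 15, 17 and 9 in those of MDA-MB-468. Control replicate 3 of MDA-MB-468 had 8 genes above, fewer than any ASO array of that line.

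For MCM2 to MCM7 the array means were 0.28, 0.12 and 0.10 with the ASO in MDA-MB-231, against -0.03, -0.03 and 0.06 with control. In MDA-MB-468 they were -0.0017, -0.09 and -0.31 with the ASO, against -0.0054, 0.04 and -0.04. The ASO arrays of MDA-MB-231 all lay above the controls, as they did at smaller size over all tested features. In MDA-MB-468 replicate 3 lay far below the rest while replicate 1 lay among the controls. Replicate 3 is the ASO array of MDA-MB-468 whose omission is given above for both medians.

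**Figure D3:**
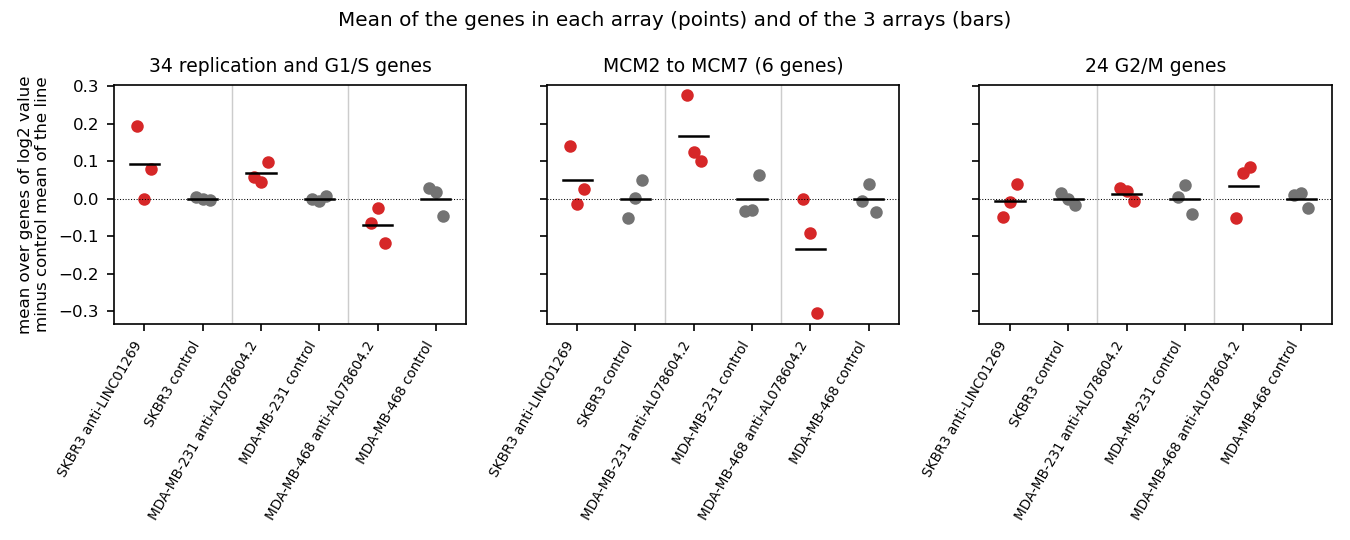
Each point is the mean in 1 array of the log2 values minus the control mean of the line, over the 34 genes, over MCM2 to MCM7 and over 24 G2/M genes, with ASO arrays in red left of control arrays in grey and a bar for the mean of 3 arrays. For the 34 genes the ASO arrays of MDA-MB-231 lie at 0.05 to 0.10 and those of MDA-MB-468 at -0.12 to -0.02.

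**Figure D4:**
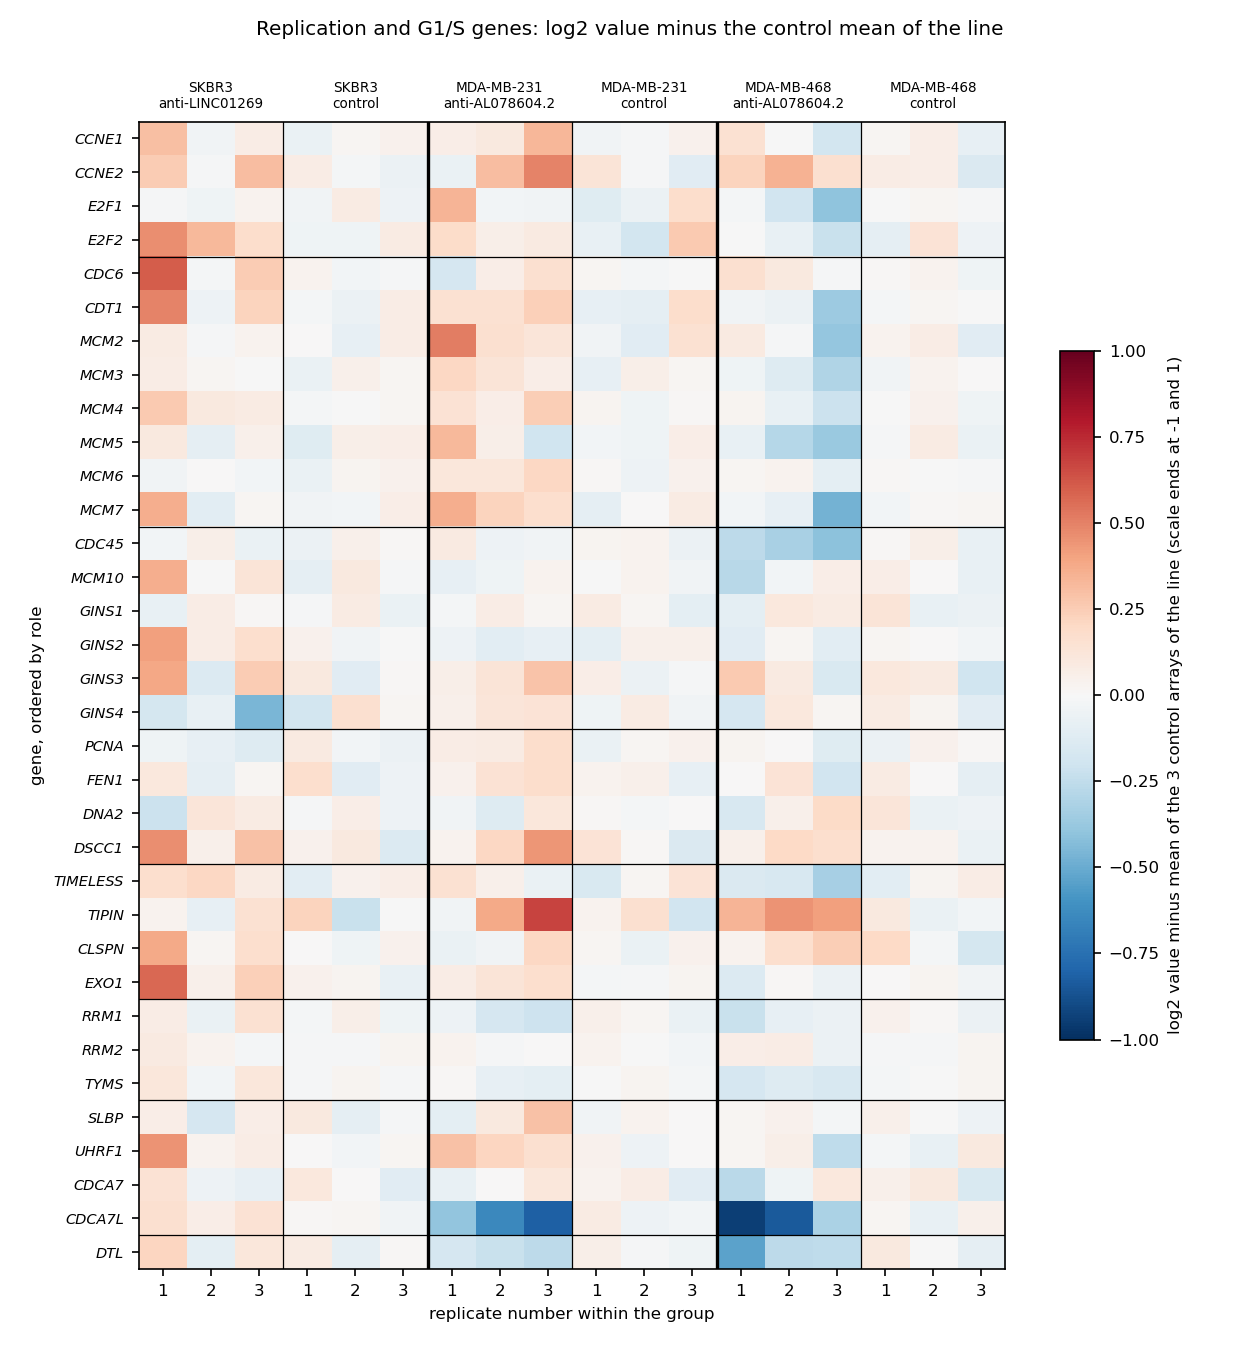
Heat map of the 34 genes (rows, ordered by role) in the 18 arrays (columns, by line, with the ASO group left of its control), coloured by log2 value minus the mean of the 3 control arrays of the line. CDCA7L is the darkest row in both triple-negative lines, and MDA-MB-468 anti-AL078604.2 replicate 3 is blue through most of the licensing genes.

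With the anti-LINC01269 ASO in SKBR3, 27 of 34 genes lay above 0 and 7 below, with a median of 0.07 log2, against 54% of all features and a median of 0.01. No gene of the list passed, and limma called 0 of all 29855 features (0%). At an unadjusted p below 0.05, the list held 6 higher and 1 lower gene, where 9.16% of all features were below that p in either direction. Groups did not overlap for 7 higher and 0 lower genes, where 7.28% of all features were higher and 4.26% lower without overlap.

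The genes with the smallest p in SKBR3 were EXO1, E2F2, the activating E2F, and GINS2, a GINS subunit. EXO1 read 9.02, 8.50 and 8.69 with anti-LINC01269, against 8.49, 8.48 and 8.38 with control (0.29 ± 0.0938 log2, SE, adjusted p = 0.424). E2F2 read 7.57, 7.42 and 7.28, against 7.05, 7.06 and 7.18 (0.32 ± 0.109, adjusted p = 0.427). GINS2 read 6.95, 6.62 and 6.71, against 6.59, 6.51 and 6.54 (0.22 ± 0.0806, adjusted p = 0.451). In all 3 genes the groups did not overlap and replicate 1 was the highest array. Without anti-LINC01269 replicate 1, the EXO1 difference was 0.14 (adjusted p = 0.909), and without replicate 2 it was 0.40 and passed (adjusted p = 0.0364), the 1 of 6 omissions that did.

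On the lower side in SKBR3, GINS4, a GINS subunit, read 6.83, 6.94 and 6.55 with anti-LINC01269, against 6.83, 7.17 and 7.03 (-0.24 ± 0.108, SE, adjusted p = 0.533). PCNA read 10.85, 10.81 and 10.77, against 10.98, 10.87 and 10.83 (-0.08), and MCM6 8.71, 8.75 and 8.72, against 8.68, 8.77 and 8.79 (-0.02). The groups of these 3 genes overlapped. CDCA7L, lower in both other lines, read 8.20, 8.10 and 8.18 in SKBR3, against 8.05, 8.06 and 8.003, and DTL differed by 0.08. CDCA7L was thus slightly higher without overlap (0.12 ± 0.126, adjusted p = 0.815), with another ASO and in another line, and no test set SKBR3 against the others.

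By array, the mean of the 34 genes in SKBR3 was 0.20, 0.0002 and 0.08 with anti-LINC01269, against 0.0039, -0.0015 and -0.0024 with control. Replicate 1 lay highest and replicate 2 lay among the controls. Leaving out anti-LINC01269 replicate 1 gave a median of 0.04 over the list, and leaving out replicate 2 gave 0.12. For MCM2 to MCM7 the median was 0.03, with 1 of the 6 (MCM4, 0.15) without overlap.

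The second feature of CLSPN had -0.12 in SKBR3, 0.10 in MDA-MB-231 and 0.05 in MDA-MB-468 (SE 0.192 each), where the brighter feature had 0.19, 0.04 and 0.15. The features thus lay on opposite sides of 0 in SKBR3 and on the same side in the triple-negative lines, and neither passed. The second feature of GINS4 did not pass the filter on dim features and was not tested.

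Related genes outside the list were described in 4 lists, chosen with results of these data known. None had a gene called in a single-line comparison. Other replication genes (19 tested of 33) had medians of 0.06 in SKBR3, -0.02 in MDA-MB-231 and 0.06 in MDA-MB-468, the reverse order of the MCM ring in the triple-negative lines. Their smallest p was that of CDC7, the kinase that fires origins, in MDA-MB-231 (0.21, adjusted p = 0.244), TOPBP1, which helps activate the helicase, in SKBR3 (0.22, adjusted p = 0.45) and TICRR, its partner at origins, in MDA-MB-468 (0.15, adjusted p = 0.451).

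Genes of RB and E2F control (22 tested of 32) had medians of 0.12 in SKBR3, 0.04 in MDA-MB-231 and -0.01 in MDA-MB-468. MYC, the growth transcription factor, had the smallest p of this list in SKBR3 (0.44, adjusted p = 0.45) and in MDA-MB-231 (0.41, adjusted p = 0.395). In MDA-MB-468 that place was held by CCND1, cyclin D1 (-0.23, adjusted p = 0.488). CDC25A, a phosphatase that activates CDK2, had 0.31 in SKBR3 and E2F7, a repressing E2F, 0.26, neither passing.

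Other nucleotide supply genes (11 tested of 19) had medians of 0.03 in SKBR3, -0.0021 in MDA-MB-231 and -0.03 in MDA-MB-468. DTYMK, the kinase that follows TYMS on the way to thymidine triphosphate, was the 1 gene of the 4 lists called in the average of both triple-negative lines (-0.28, adjusted p = 0.0451). SAMHD1, which degrades nucleotides, had 0.18 in that average (adjusted p = 0.057). The G2/M genes (24 tested of 31), which mark the later part of the cycle, had medians of -0.01 in SKBR3, 0.0003 in MDA-MB-231 and 0.04 in MDA-MB-468.

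The G2/M genes did not share the opposite directions. Their array means were 0.03, 0.02 and -0.0073 with anti-AL078604.2 in MDA-MB-231, against 0.0043, 0.04 and -0.04 with control. In MDA-MB-468 they were -0.05, 0.07 and 0.08 with the ASO, against 0.0096, 0.02 and -0.03. The groups overlapped in both lines. In MDA-MB-468 replicate 3, the array lowest for the MCM ring, was the highest for the G2/M genes, and the part of this in the MCM values was not tested. HMMR, a spindle protein gene, had the smallest p of the list in MDA-MB-468 (0.27, adjusted p = 0.275) and for the difference of the effects (-0.28, adjusted p = 0.998).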

How the data were processed

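RNA was measured on 18 arrays, 3 in each of 6 groups taken from the cell line and treatment labels. Per the labels' protocols, cells were lysed in TRIzol, a PureLink kit purified the RNA and the WT PLUS kit labelled it. Per the submitters' processing notes, the authors used Transcriptome Analysis Console, and its version, normalization and build are not given in the sources used here. Deposited values (0.41 to 13.84) were read as log2 expression from their range, since no source names the scale. Precision is limited by the number of arrays.

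Features were named through the platform annotation (16098 of 53617 with 1 symbol, 37519 unnamed here, 0 with several). Tested features had a mean above the median of all features in at least 1 group. With limma 3.58.1 in R 4.3.3, all 18 arrays entered 1 group-means model (12 residual and 4.33 prior degrees of freedom, intensity trend), with two-sided p-values adjusted by Benjamini-Hochberg over 29855 features. The comparisons were each ASO minus the control of its line, the difference between the 2 anti-AL078604.2 effects, and their average. SEs come from this fit. No file marks control features, so none was removed. Nothing says that replicates came from separate cultures, so p-values measure the spread between these arrays, which may be technical. No 2 arrays were identical.

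Values per array are given for genes called in any comparison, the 6 smallest p for the difference, the 3 smallest p in each direction per line and the 3 smallest in the average. The members, roles and lists were chosen with earlier results of these data known. Promoter windows and gene names are from RefSeq (GRCh38.p14). The procedure was tested on simulated data. Alternatives changed the arrays fitted, blocking, trend, filter, normalization, feature per gene and array weights, and left out each array.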

Additional observations from a re-analysis of the deposited data

Results flagged for a closer look

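MCM3, a subunit of the replicative helicase ring, was marked because every anti-AL078604.2 array lay above every control array in MDA-MB-231 and below every control array in MDA-MB-468. The effect in MDA-MB-231 minus that in MDA-MB-468 was 0.29 log2. The test of this difference across all features did not pass (adjusted p = 0.998), and 0.261% of all features showed the same pattern.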

How the results depend on the processing

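The direction of the list medians was the same under each alternative tried. Counts were less stable. In SKBR3, features called went to 1 with no filter and ran from 0 to 231 over omissions of 1 array, and genes of the list called from 0 to 1. In MDA-MB-231, features called were 12 in a fit on the 12 MDA-MB arrays, 0 with a replicate block, 26 without the intensity trend, 28 with no filter, 2413 with array weights and 0 to 532 over omissions. Genes of the list called were 3 with array weights and 0 to 1 over omissions, and the list median ran from 0.075 to 0.106. In MDA-MB-468, features called were 0 in the 12-array fit and with the block, 5199 with weights and 0 to 12 over omissions. Genes of the list called were 9 with weights and 0 to 1 over omissions, and with weights 16 lay above 0 with a median of -0.0063. For the difference of the effects, weights gave 309 features and a median of 0.065, and omissions gave medians from 0.08999 to 0.1678. For the average, features called were 259 in the 12-array fit, 113 with the block, 263 with no filter, 5837 with weights and 91 to 1431 over omissions. Genes of the list called were 1 with the block, 1 without the trend, 10 with weights and 1 to 6 over omissions. The weights ran from 0.377 to 9.62, with the highest on MDA-MB-468 anti-AL078604.2 replicate 2. The opposite-sign count was 12 without MDA-MB-468 anti-AL078604.2 replicate 3, an omission added after the data had been seen. CDCA7L passed in a single line with array weights and without MDA-MB-231 anti-AL078604.2 replicate 1 or MDA-MB-468 anti-AL078604.2 replicate 3.

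Near 0, signs turned for the MCM2 to MCM7 median in SKBR3 (-0.00036 to 0.066 over omissions), MCM6 in SKBR3 (-0.05126 to 0.003303) and the MCM2 to MCM7 median of the average (-0.0055 to 0.074). The cause of these changes was not tested. Same-numbered arrays correlated at r from -0.124 to 0.101 after removal of group means, so the numbers did not pair the arrays. The replicate block left 1 called gene of the list in the average, CDCA7L, with DTL at an adjusted p of 0.0789, and moved no other call in the list.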
